A study of Mus musculus with 21 samples.

Results

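The genes examined here are 40 that encode the cell cycle machinery: the proliferation markers Mki67 and Top2a, 6 G1 and S phase cyclins and kinases, 6 mitotic kinases and cyclins, 3 spindle checkpoint and exit factors, 4 phosphatases and brakes, 6 transcription factors, 8 origin licensing factors and 5 proteins of the replication fork and nucleotide supply. They were chosen by name, for their roles in the cycle, out of 21887 protein-coding genes of the mouse annotation (GRCm38.p6, the mm10 assembly). For each gene, the peak summits in its window were counted, a window being the gene body and 20 kb on each side. Only the 100000 strongest summits of each library's list, here called kept summits, entered. Omni-ATAC, which marks open chromatin by transposase insertion, had been run on 21 libraries in 7 groups of 3. Granule neuron progenitors (GNP) and hyperplasia cells came from Atoh1EGFP cerebella at postnatal days 7 and 28, and tumor cells came from tumor-bearing cerebella. EGFP-positive cells were sorted, so all primary groups share the reporter driven by Atoh1 regulatory sequence. GNP titles carry the prefix Ptch1 and hyperplasia titles read PNC, and the genotypes are not given in the sources used here. The other 12 libraries came from VDR, labelled a mouse medulloblastoma cell line, which was untreated or received a control siRNA (siNC) or an siRNA against Nfia (siNfia) or Nfib (siNfib), which encode NFI transcription factors. The labels read si, but the lists were deposited under names that start with sh, so the kind of reagent is uncertain. VDR is a single line, and the labels leave unsaid if a group's 3 libraries are separate animals or separate cultures, so p-values measure only the spread between these libraries, which may be technical.

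Cells copy their DNA once and divide it once per cycle. Cyclin-dependent kinases, switched on by cyclins, drive entry into S phase and later into mitosis. E2F factors activate S phase genes once the retinoblastoma protein releases them, while a complex with B-Myb (Mybl2) and FoxM1 activates mitotic genes through the CHR element, often beside CCAAT boxes. Granule neuron progenitors of the young cerebellum divide under Hedgehog signalling and are a cell of origin of medulloblastoma. Open chromatin at a promoter or enhancer permits transcription without measuring it.

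The promoters of 6 members are shown because they carry the sequence features by which the roles differed. Each line gives the 250 bases before a start listed by RefSeq (GRCm38.p6), read 5′ to 3′ on the gene's strand. That start can lie inside the annotated gene body. For Cdc6 the body begins at chr11:98907709, so all its printed bases lie within the gene. Parts of the Mki67, Top2a and Mcm5 stretches do too. Capitals mark matches, on either strand, to an E2F heptamer, a CHR element or a CCAAT box. The heptamer letters were TTTCCCG or TTTCGCG, and also TTTGCCG or else TTTGGCG. The CHR letters were TTTGAA or TTCGAA. Mki67, the antigen detected by Ki-67 antibodies, and Top2a, the topoisomerase that untangles sister chromatids, carry CHR elements and CCAAT boxes and no E2F heptamer. Cdk1, the mitotic kinase, carries all 3 motifs. Mcm6 and Mcm5, subunits of the replicative helicase, carry E2F heptamers and CCAAT boxes, and Cdc6, which loads that helicase onto origins, carries 1 E2F heptamer alone.
Mki67 (chr7:135716380-135716629, minus strand): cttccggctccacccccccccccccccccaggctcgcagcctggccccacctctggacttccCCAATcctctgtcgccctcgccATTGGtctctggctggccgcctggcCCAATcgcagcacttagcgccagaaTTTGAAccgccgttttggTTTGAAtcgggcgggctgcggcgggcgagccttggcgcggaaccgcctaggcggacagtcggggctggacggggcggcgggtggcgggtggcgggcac
Top2a (chr11:99024190-99024439, minus strand): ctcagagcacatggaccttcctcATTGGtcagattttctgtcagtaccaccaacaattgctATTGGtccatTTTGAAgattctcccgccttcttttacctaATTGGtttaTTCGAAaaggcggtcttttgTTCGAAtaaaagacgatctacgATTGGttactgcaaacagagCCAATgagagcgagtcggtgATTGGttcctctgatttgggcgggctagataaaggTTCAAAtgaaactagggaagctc
Cdk1 (chr10:69352913-69353162, minus strand): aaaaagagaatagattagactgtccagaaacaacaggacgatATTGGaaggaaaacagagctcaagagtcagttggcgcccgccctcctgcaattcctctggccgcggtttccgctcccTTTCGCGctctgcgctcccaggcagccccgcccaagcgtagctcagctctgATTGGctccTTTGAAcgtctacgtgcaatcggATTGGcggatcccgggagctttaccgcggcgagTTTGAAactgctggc
Mcm6 (chr1:128359706-128359955, minus strand): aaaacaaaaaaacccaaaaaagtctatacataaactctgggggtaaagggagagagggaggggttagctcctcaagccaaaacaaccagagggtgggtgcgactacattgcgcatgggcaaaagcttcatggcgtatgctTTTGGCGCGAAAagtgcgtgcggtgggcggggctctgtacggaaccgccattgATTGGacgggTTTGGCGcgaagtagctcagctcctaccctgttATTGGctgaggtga
Mcm5 (chr8:75109259-75109508, plus strand): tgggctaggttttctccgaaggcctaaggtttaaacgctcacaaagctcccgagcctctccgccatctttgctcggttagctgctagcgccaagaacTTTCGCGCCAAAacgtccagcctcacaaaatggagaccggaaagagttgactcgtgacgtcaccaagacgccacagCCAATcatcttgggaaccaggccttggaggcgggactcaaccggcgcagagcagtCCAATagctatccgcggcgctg
Cdc6 (chr11:98907901-98908150, plus strand): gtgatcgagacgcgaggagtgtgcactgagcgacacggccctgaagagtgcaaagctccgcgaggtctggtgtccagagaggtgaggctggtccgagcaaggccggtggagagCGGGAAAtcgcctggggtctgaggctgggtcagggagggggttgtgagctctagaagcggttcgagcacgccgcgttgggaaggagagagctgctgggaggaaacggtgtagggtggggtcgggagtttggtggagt

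Promoter sequences were on hand for 33 of the 40 genes, giving 37 promoters of 300 bases (250 before and 50 after the start). Of these, 14 (37.8%) held an E2F heptamer, against 6.70% of all 32851 promoters of that length. A CHR element was in 14 (37.8%), against 19.2% of all, and a CCAAT box in 27 (73.0%), against 37.4%. All 14 promoters with a CHR element also had a CCAAT box, a pair found in 7.52% of all promoters. CHR elements were in 2 of 2 promoters of the proliferation markers, 4 of 5 mitotic and 3 of 3 spindle checkpoint promoters, against 2 of 8 licensing promoters and 0 of 5 G1 and S promoters. E2F heptamers had another distribution, with 6 of 8 licensing, 2 of 3 phosphatase and brake and 3 of 7 transcription factor promoters. They were in 1 of 4 replication, 1 of 5 G1 and S and 1 of 5 mitotic promoters. Among proliferation markers and spindle checkpoint genes they were in 0 of 2 and 0 of 3. The full palindromic NFI site, TTGGC and GCCAA separated by 5 bases, was in 0 of 37 member promoters and in 0.0365% of all. With only 12 of all 32851 promoters holding it, a count of 0 in 37 says nothing about NFI at these genes. These are matches of letters, not measured binding.

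Lists held 159720 to 279584 summits. The score at rank 100000 ran from 9.26 to 28.9 in the primary libraries, from 4.95 to 17.4 in the siRNA libraries and from 3.76 to 3.97 in untreated VDR, and read depth is unknown. Untreated VDR stood apart: 22.6% to 24.4% of its kept summits in the 40 windows lay within 1 kb of a gene start, or of either gene end where the start was not on hand, against 31.6% to 40.0% in the other 18 libraries. No 2 libraries shared more than 1.82% of exact summit positions. All 8 granule progenitor markers (among them Atoh1, Zic1 and Barhl1) had a promoter summit in every library outside untreated VDR, where 7 had one in all 3. Promoters of the microglial Csf1r and P2ry12, the endothelial Cldn5 and Pecam1 and the astrocytic Aqp4 had none in any library. Of the other markers, a promoter summit in 3 of 3 libraries was found in both GNP and tumor for 1 of 5 microglial, 1 of 3 endothelial, 1 of 3 fibroblast and 2 of 3 Purkinje cell markers, and for 1 of 4 astrocyte and 2 of 4 oligodendrocyte markers in GNP against 2 of 4 and 3 of 4 in tumor. Summed window summits were 31 to 35 in GNP and 36 to 47 in tumor for astrocytes, 25 to 32 and 33 to 39 for oligodendrocytes, 13 to 17 and 26 to 35 for Purkinje cells and 24 to 25 and 28 to 29 for fibroblasts. They were 13 to 15 and 9 to 12 for endothelial cells, 209 to 233 and 179 to 202 for granule progenitors, and 12 to 13 in both for microglia. By limma on window counts, 2 of 21 marker windows tested (Olig1 and Foxp2) rose and 2 (Kdr and Pax6) fell from GNP to tumor, and 6 of 20 rose and 7 fell from tumor to siNC-treated VDR. The part of other cell types in the results was not tested. In these bulk libraries a site open in fewer cells and a site less open in each cell cannot be told apart.

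Cell cycle promoters were open almost without exception. All 40 genes had a kept summit within 1 kb of the start in every GNP, hyperplasia, tumor, siNfia and siNfib library and in siNC replicates 1 and 3, while 39 had one in siNC replicate 2. In untreated VDR the numbers were 38, 36 and 39 in replicates 1 to 3. Over all protein-coding genes the share was 57.5% to 60.1% in primary libraries, 52.4% to 53.2% in siRNA libraries and 46.1% to 51.2% in untreated VDR. For Ccna2, Ccne2, Mcm4, Foxm1, Pole, Aurkb and Wee1 the start was not on hand, and a summit within 1 kb of either gene end was used. Of the 40 genes, 36 had the summit in all 21 libraries, and the exceptions were Bub1 (17 libraries), Ccne2 (19), E2f2 (20) and Mki67 (20).

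The strength of a promoter was read as the rank of its summit among the 100000 kept, where rank 1 is the strongest. Ccnd3, E2f2, E2f3 and Mcm7 have more than 1 listed start, and the best summit near any of them was used. E2f3, an activating E2F, had by far the strongest promoter of the set. Its ranks were 127, 53 and 66 in GNP, 102, 51 and 73 in hyperplasia and 54, 34 and 94 in tumor. In VDR they were 943, 477 and 934 untreated, 272, 354 and 626 with siNC, 290, 406 and 251 with siNfia and 331, 848 and 204 with siNfib. Every primary library thus ranked E2f3 above every VDR library. Next by median rank over 21 libraries came Ccna2 (cyclin A2, 1228), Mcm3 (1401), Pcna, the sliding clamp (2038), and Mcm5 (2055).

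At the other end stood Bub1, the spindle checkpoint kinase, with a median rank of 56882, E2f2 (33622), Mki67 (24875) and Foxm1 (20201). Over the primary libraries alone the medians were 36779 for Bub1, 22449 for E2f2 and 20095 for Foxm1. That of Mki67 was 8250 there, stronger than that of Plk1 (15449), so its weak position came from the VDR libraries. Bub1 ranked 43387, 45850 and 36288 in GNP, 23878, 29924 and 43152 in hyperplasia and 23968, 36779 and 40089 in tumor, and no untreated VDR library kept its summit. Spindle checkpoint promoters did not share this weakness: Cdc20, the activator of the anaphase-promoting complex, had a median rank of 4943 and Bub1b one of 10017. Within the licensing factors every median lay between 1401 (Mcm3) and 6713 (Mcm7). Mitotic promoters ran from Aurka (4147) and Cdk1 (5429) through Ccnb1 (8695) and Aurkb (12065) to Ccnb2 (13950) and Plk1 (14249).

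**Figure D1:**
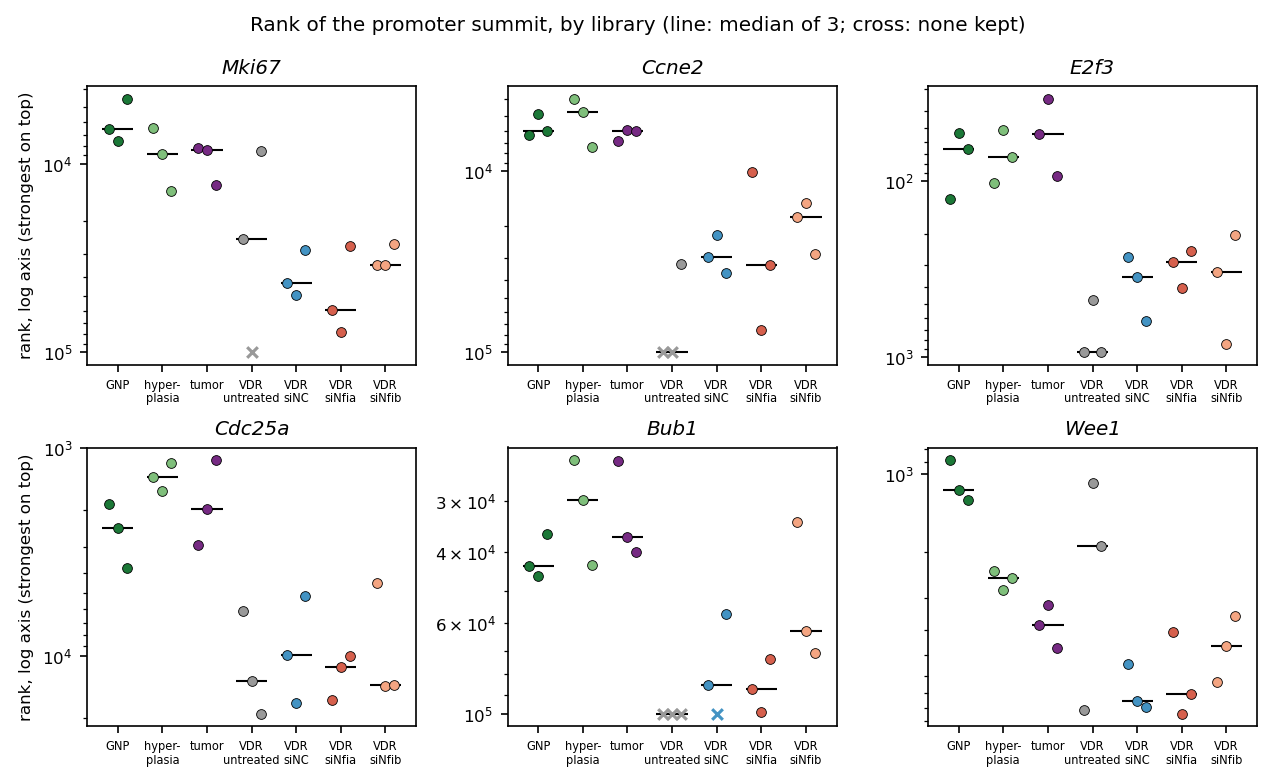
Rank of the strongest kept summit within 1 kb of the start (log axis, strongest on top) in each of 21 libraries for 6 genes; points are libraries, lines are medians of 3 and crosses mark libraries without a kept summit, drawn at 100000. Mki67, Ccne2, E2f3, Cdc25a and Bub1 ranked higher in every tumor library than in every siNC library, and Wee1 ranked from 883 to 1261 in GNP and from 3200 to 4684 in tumor.

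The 40 windows did not overlap and together held 341 to 351 kept summits in GNP, 317 to 353 in hyperplasia, 326 to 336 in tumor and 324 to 369 in untreated VDR. The siRNA libraries held more, with 396 to 418 for siNC, 379 to 384 for siNfia and 395 to 422 for siNfib. Merged over libraries, the windows contained 684 regions of 500 bp. Of these, 78 (11.4%) were occupied in all 21 libraries, against 5.44% of all 270959 regions of the genome. Many windows reach into other genes: the Mki67 window includes Ptpre, the Mcm6 window Lct and Dars, and the Cdt1 window Piezo1, Aprt and Galns.

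**Figure D2:**
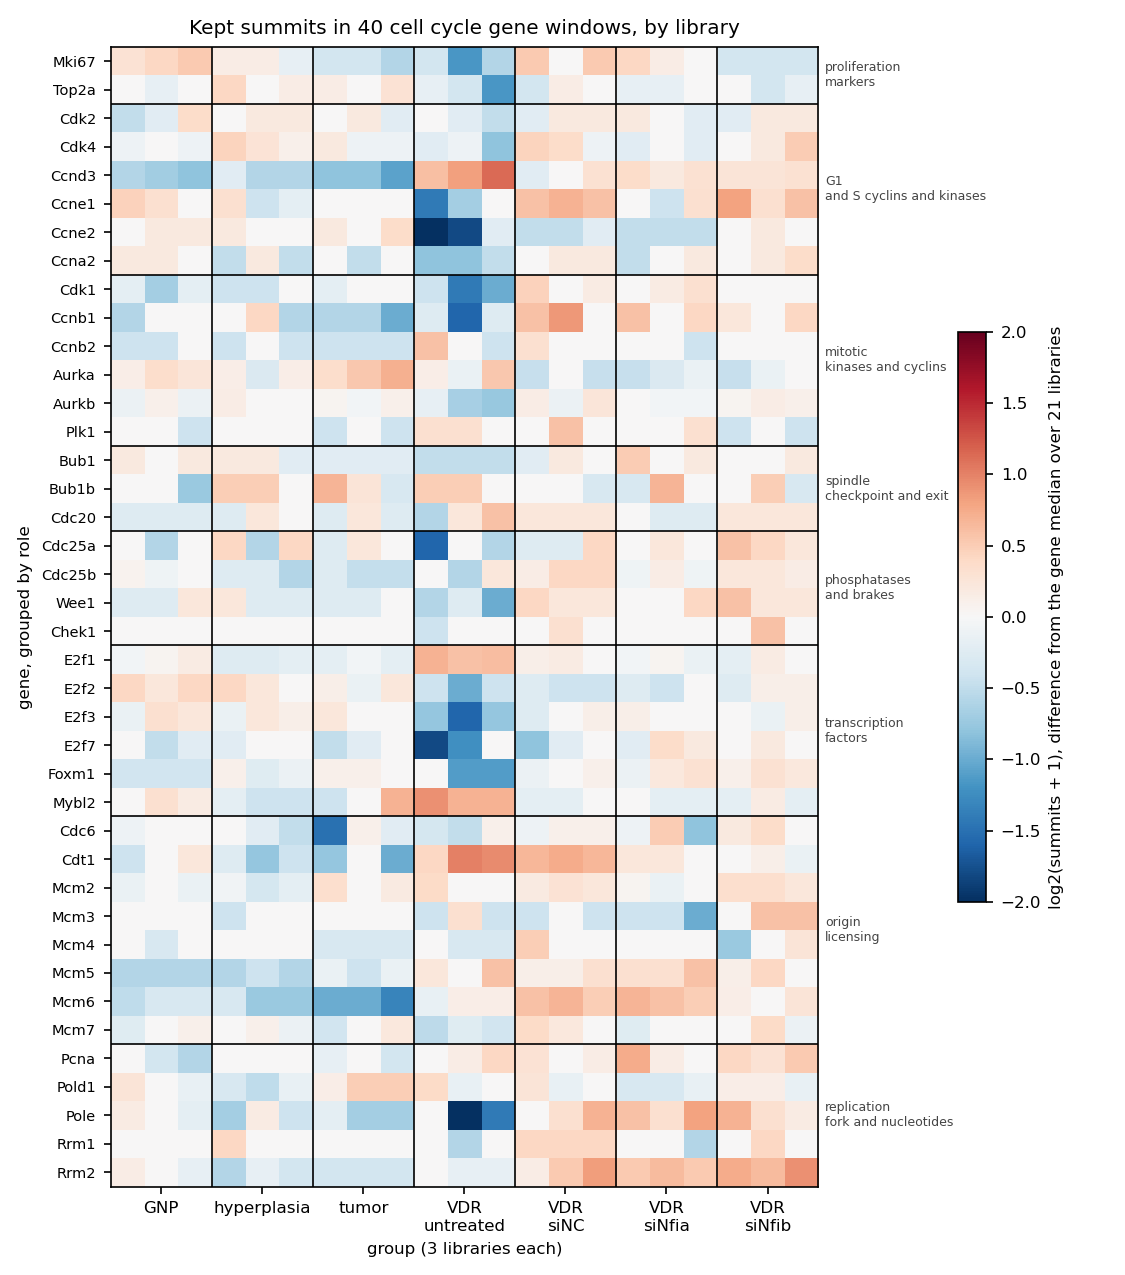
Kept summits per window, as log2(summits + 1) minus the gene's median over 21 libraries, for 40 genes (rows, by role) and 21 libraries (columns, 3 per group); red is above and blue below the gene's own median. Mki67 and Mcm6 go from 10, 11 and 12 and 6, 7 and 7 summits in GNP to 6, 6 and 5 and 4, 4 and 3 in tumor, Ccnd3 is highest in untreated VDR, and the siNC columns for Mcm6 and Cdt1 are red.

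The first question was whether cell cycle loci changed as progenitors became hyperplasia and tumor. Few windows were called from GNP to tumor: Mki67 and Mcm6 were lower and Foxm1 higher. The other windows that could be tested did not pass. Such calls were about as frequent as over all genes, and only that of Mki67 held without each library in turn. Differences are in log2(kept summits + 1), tested with limma over all 14098 genes whose mean was at least 3 summits. Of the 40 genes 36 passed that filter, all but Ccnb2, Plk1, Mcm3 and Rrm1. By this test 1 of 36 was called higher and 2 lower in tumor than in GNP at an adjusted p below 0.05, where 2.95% of all tested genes were called higher and 3.29% lower. The median difference was -0.04 over the 36 genes and -0.05 over all genes.

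Mki67 had 10, 11 and 12 kept summits in GNP, 9, 9 and 7 in hyperplasia and 6, 6 and 5 in tumor. The 3 groups did not overlap, with hyperplasia between the other two. From GNP to tumor the window fell by 0.85 (log2, SE 0.12, adjusted p = 0.0102), a call kept when each of the 6 libraries was left out in turn (adjusted p 0.0293 to 0.0499). Neighbouring genes, 10 on each side, fell by 0.17, and relative to them Mki67 fell by 0.68 (adjusted p = 0.0249). With only the 50000 strongest summits the fall was 0.18 (adjusted p = 0.342).

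In the Mki67 window 3 regions were occupied, that is, held a kept summit, in 3 of 3 GNP and 0 of 3 tumor libraries. A tumor summit below rank 100000 would not be counted there. Of these, 2 adjoin each other beyond the 3′ end, at chr7:135676609-135677108 and chr7:135677112-135677611, which are 39520 and 39017 bp from the start. The last lies in the gene body at chr7:135715251-135715750, 878 bp from the start. Their ranks in GNP ran from 51475 to 83626 of 100000. At the promoter the ranks were 6545, 7556 and 4499 in GNP and 8250, 8378 and 12863 in tumor. They were lower in every tumor library, with no overlap, and the difference of -0.67 (SE 0.34, adjusted p = 0.272) was not called.

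Mcm6 had 6, 7 and 7 summits in GNP, 7, 5 and 5 in hyperplasia and 4, 4 and 3 in tumor. Tumor lay below both other groups, which overlapped each other. The difference between tumor and GNP was -0.72 (SE 0.15, adjusted p = 0.0300), and -0.79 relative to neighbours (adjusted p = 0.0153). It was lost without any 1 of the 6 libraries (adjusted p 0.0592 to 0.103) and with the replicate number as a block (adjusted p = 0.0582). A region at chr1:128368605-128369104, 9150 bp upstream of the start, was occupied in all GNP and in no tumor library.

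Foxm1, whose product activates mitotic genes, had 9, 9 and 9 summits in GNP, 13, 10 and 11 in hyperplasia and 13, 13 and 12 in tumor. GNP lay below both later groups. The rise from GNP to tumor was 0.45 (SE 0.10, adjusted p = 0.0345), and it too was lost without any 1 library (adjusted p 0.0626 to 0.102). Its neighbours rose by 0.42, leaving 0.03 relative to them (adjusted p = 0.934). Regions at chr6:128349638-128350137, chr6:128361854-128362353 and chr6:128375192-128375691 were occupied in all tumor and no GNP libraries, the last inside the gene body, 444 bp from a gene end. That one had ranks between 11600 and 28916 in tumor.

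Over all windows 11 regions of 684 were gained from GNP to tumor and 9 lost (1.61% and 1.32%), near the 1.76% and 1.63% of all regions. Neither step alone called any window. From GNP to hyperplasia limma called 0 of 36 in either direction, with 7 at an unadjusted p under 0.05, where 1.83% of all genes were called higher and 2.17% lower. From hyperplasia to tumor it called 0 of 36, with 10 at an unadjusted p under 0.05, where 0.135% of all genes were called higher and 0.0567% lower. Among the uncalled, Pold1, the catalytic subunit of DNA polymerase delta, had 7, 6 and 8 summits in hyperplasia and 10, 13 and 13 in tumor (difference 0.70, SE 0.15, adjusted p = 0.0769). Aurka, the centrosomal Aurora kinase, had 11, 8 and 11 in hyperplasia and 13, 15 and 17 in tumor (0.55, SE 0.14, adjusted p = 0.11). Both were picked from genes whose groups did not overlap. At this step that held for 19.4% of the 36 windows and 11.7% of all genes.

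The other large uncalled differences between separate groups came from several roles. From GNP to hyperplasia 16.7% of member windows had separate groups, against 17.4% of all genes. Cdk4 had 12, 13 and 12 summits in GNP and 18, 16 and 14 in hyperplasia (0.34, SE 0.12, adjusted p = 0.13). Cdc25b had 18, 16 and 17 in GNP, 14, 14 and 11 in hyperplasia and 14, 12 and 12 in tumor (-0.40 from GNP to tumor, SE 0.11, adjusted p = 0.0654). Among the primary groups GNP was thus the highest for Cdc25b, while for Cdk4 tumor, at 15, 12 and 12, overlapped GNP. Mybl2, the B-Myb gene, had 7, 9 and 8 in GNP and 6, 5 and 5 in hyperplasia (-0.50, SE 0.24, adjusted p = 0.282), while tumor spread from 5 to 12. Mcm2, another helicase subunit, had 21, 17 and 19 in hyperplasia and 28, 22 and 25 in tumor (0.38, SE 0.11, adjusted p = 0.131). Over the same step Ccnd3 went from 17, 13 and 13 to 11, 11 and 9 (-0.43, SE 0.13, adjusted p = 0.145), and Mcm5 stood at 7, 7 and 7 in GNP and 10, 8 and 10 in tumor (0.36, SE 0.11, adjusted p = 0.0794).

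**Figure D3:**
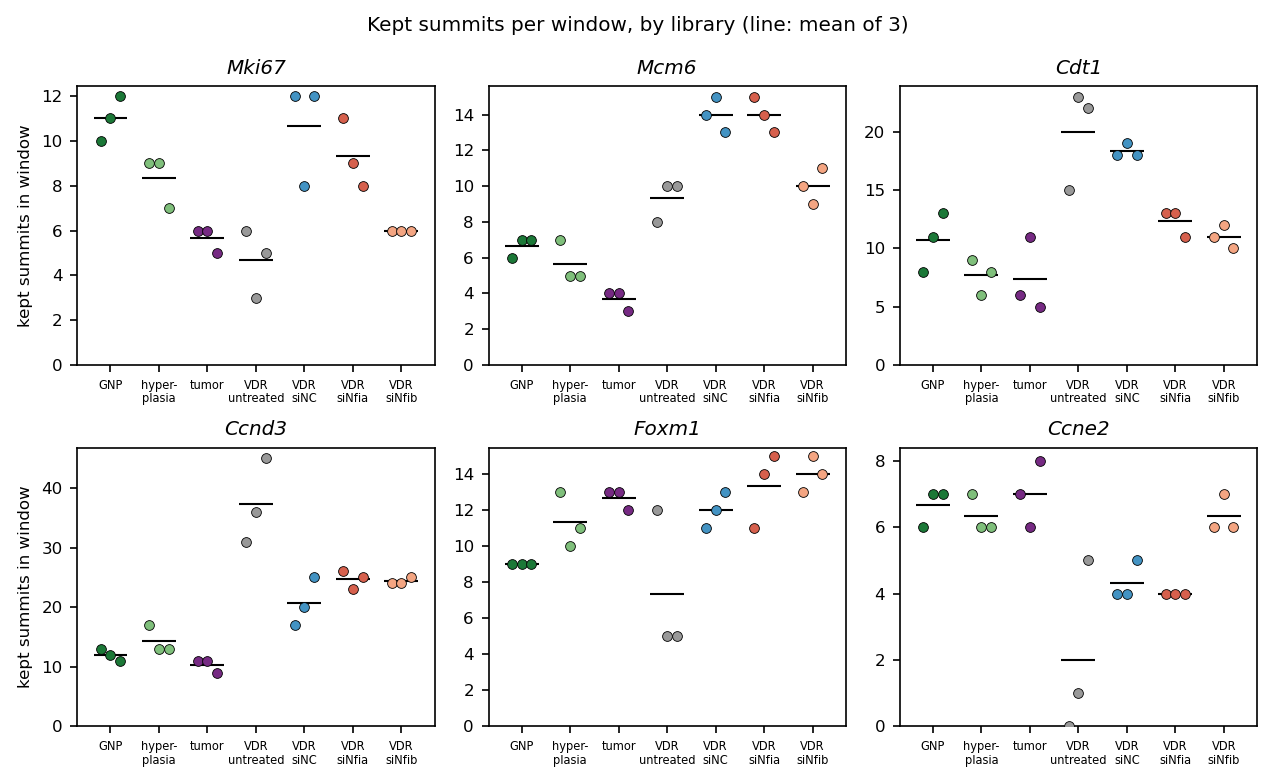
Kept summits in the window (gene body and 20 kb on each side) in each of 21 libraries for 6 genes; points are libraries and lines are means of 3, with axes starting at 0. Mki67 goes from 10 to 12 in GNP to 5 to 6 in tumor and 8 to 12 in siNC, Cdt1 is at 18 to 19 with siNC and at 10 to 12 with siNfib, and Ccnd3 reaches 31 to 45 in untreated VDR.

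Promoter ranks were lower on average in tumor than in GNP for 31 of 40 genes (77.5%), as for 66.5% of all genes tested, though few passed the test. Ranks were tested as log2, with a fall meaning a weaker position. From GNP to tumor 0 of 40 rose and 2 fell, Wee1 and Pole, where 2.94% of all 13364 genes rose and 4.81% fell. The median change was -0.35 over the 40 genes and -0.18 over all genes. Ranks did not overlap between GNP and tumor for 37.5% of the 40 genes and 30.9% of all genes.

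Wee1, the kinase that holds Cdk1 inactive before mitosis, ranked 883, 1155 and 1261 in GNP, 2359, 2813 and 2525 in hyperplasia and 3832, 3200 and 4684 in tumor. The 3 groups did not overlap and fell in that order. From GNP to tumor it fell by 1.83 (log2 rank, SE 0.34, adjusted p = 0.00282), a call kept without each of the 6 libraries (adjusted p 0.00674 to 0.0252). The first step, a fall by 1.23 (SE 0.34, adjusted p = 0.0477), was the single call among 40 from GNP to hyperplasia, where 1.64% of all genes rose and 2.79% fell, and was lost without any 1 library (adjusted p 0.0682 to 0.218). Its window did not follow, with 4, 4 and 6 summits in GNP and 4, 4 and 5 in tumor.

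Pole, the leading-strand polymerase, ranked 3561, 3491 and 3964 in GNP and 17419, 7091 and 7677 in tumor. All tumor libraries were lower, replicate 1 by far. The fall was 1.42 (SE 0.35, adjusted p = 0.0185) and was lost without any 1 GNP library or tumor replicate 1 (adjusted p up to 0.0905). For both Wee1 and Pole either gene end was used, so the summit may not be at the start.

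From hyperplasia to tumor 0 of 40 rose and 1 fell, Cdc6, where 2.39% of all genes rose and 4.29% fell. Cdc6 ranked 1466, 3150 and 1712 in hyperplasia and 5282, 4596 and 5383 in tumor, with no overlap. It fell by 1.35 (SE 0.34, adjusted p = 0.0289), and the call was lost without hyperplasia replicate 1, tumor replicate 1 or tumor replicate 3 (adjusted p up to 0.0788). In GNP its ranks were 2967, 2855 and 2798, so tumor was also the weakest of the 3 groups. At this step 33 of 40 genes (82.5%) were below 0, against 67.8% of all genes, with a median of -0.44, against -0.22 over all genes.

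The next comparison set the VDR line with control siRNA against primary tumor. Cell line and primary cells also differ in how they were obtained, which cannot be told apart from tumor and line. The windows called higher in the line were those of the licensing genes Mcm6, Cdt1 and Mcm5, the replication genes Rrm2 and Pole, the cyclin genes Ccnb1, Ccnd3 and Ccne1, and of Mki67, Cdc25b and Wee1. Of 37 windows tested, 11 were called higher and 3 lower, while over all 13936 genes 21.1% were called higher and 13% lower. The median difference was 0.26 over the 37 windows and 0.11 over all genes. Tumor and siNC libraries did not overlap for 43.2% of the 37 windows and 41.8% of all genes. These rises depend on how the lists are cut: with all summits of a score of at least 10 in place of the 100000 strongest, 0 of 36 windows were called higher and 4 lower, where 0.189% of all genes were called higher and 16.7% lower.

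Origin licensing supplied 3 of the 11. Mcm6 had 4, 4 and 3 summits in tumor and 14, 15 and 13 with siNC, a rise of 1.69 (log2, SE 0.14, adjusted p = 0.00083). Cdt1, which brings the helicase to origins, had 6, 11 and 5 in tumor and 18, 19 and 18 with siNC, a rise of 1.28 (SE 0.25, adjusted p = 0.00945). The groups were far apart for both genes, though Cdt1 lost its call without tumor replicate 1 or siNC replicate 1 or 2 (adjusted p up to 0.0573). Mcm5 had 10, 8 and 10 in tumor and 12, 12 and 14 with siNC (0.41, SE 0.13, adjusted p = 0.0465). That call was lost without any 1 library (adjusted p up to 0.112). Its neighbours rose by 0.93, so that relative to them Mcm5 fell by 0.53 (adjusted p = 0.0474).

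Among replication genes, Rrm2, the small subunit of ribonucleotide reductase, had 6, 6 and 6 in tumor and 9, 12 and 15 with siNC (0.87, SE 0.18, adjusted p = 0.0116). Pole had 6, 4 and 4 in tumor and 7, 9 and 12 with siNC (0.86, SE 0.22, adjusted p = 0.0265). Neither overlapped between groups. Both calls were lost in 4 of the 6 fits that left out 1 library (Rrm2 without any tumor library or siNC replicate 2, adjusted p up to 0.0551; Pole without tumor or siNC replicate 2 or 3, adjusted p up to 0.105).

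The cyclin genes divided. Ccnd3, a D-type cyclin of G1, had 11, 11 and 9 in tumor and 17, 20 and 25 with siNC (0.92, SE 0.16, adjusted p = 0.00603). Ccne1, cyclin E1, had 7, 7 and 7 in tumor and 11, 12 and 11 with siNC (0.62, SE 0.10, adjusted p = 0.00468). Its close relative Ccne2 went the other way, with 7, 6 and 8 in tumor and 4, 4 and 5 with siNC (-0.58, SE 0.15, adjusted p = 0.0262). The direction of Ccne2 depends on the baseline: kept summits over its 20 neighbours averaged 154 in tumor and 39.3 with siNC, a fall of 1.94, and relative to them Ccne2 was 1.36 higher (adjusted p = 0.000193). It also lost the call without tumor replicate 1 or 3 or siNC replicate 1 or 2 (adjusted p up to 0.0775).

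Ccnb1, the mitotic cyclin B1, had 3, 3 and 2 in tumor and 8, 10 and 5 with siNC (1.21, SE 0.25, adjusted p = 0.0121), a call lost without tumor replicate 3 or siNC replicate 1 (adjusted p up to 0.0603). Aurka fell from 13, 15 and 17 to 7, 10 and 7 (-0.84, SE 0.17, adjusted p = 0.0104), and its neighbours fell by 0.66, leaving -0.18 relative to them (adjusted p = 0.49). Without tumor replicate 2 or 3 that call was lost too (adjusted p up to 0.053). The mitotic group therefore held 1 call in each direction among 5 tested genes.

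Cdc25b, a phosphatase that activates Cdk1, had 14, 12 and 12 in tumor and 19, 23 and 23 with siNC (0.73, SE 0.12, adjusted p = 0.00471). Wee1, the opposing kinase, had 4, 4 and 5 in tumor and 7, 6 and 6 with siNC (0.46, SE 0.14, adjusted p = 0.0424), a call kept only without tumor replicate 3 (adjusted p otherwise up to 0.108). Both groups were separate for each gene. No transcription factor gene rose, and E2f2 fell from 12, 10 and 13 to 9, 8 and 8 (-0.44, SE 0.13, adjusted p = 0.0371), a call kept only without tumor replicate 2 (adjusted p otherwise up to 0.103). Mcm6, Cdc25b, Ccne1 and Ccnd3 were called without each library in turn.

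Mki67 rose from 6, 6 and 5 in tumor to 12, 8 and 12 with siNC (0.79, SE 0.18, adjusted p = 0.0154), with no overlap. It was called in only 1 of the 6 fits that left out a library, the one without siNC replicate 2 (adjusted p otherwise up to 0.0685). Neighbours fell by 0.44, and against them Mki67 was 1.23 higher (adjusted p = 0.00148). This comparison and that of tumor with GNP share the tumor libraries. The distal region at chr7:135677112-135677611 was occupied in 3 GNP, 0 tumor and 3 siNC libraries, with siNC ranks of 67057 to 75244.

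With the neighbouring genes as baseline, 16 windows of 37 were called higher and 1, Mcm5, lower in siNC than in tumor, where 18.3% of all genes were called higher and 12.6% lower. Cdc20, Plk1, Cdc6, Cdk1 and Mcm7 were among those added. Over all windows 24 regions were gained and 12 lost (3.51% and 1.75% of 684), against 2% and 4.64% of all regions. That balance depended on list length. With only the 50000 strongest summits 10 were gained and 12 lost (2.79% and 3.34% of 359), against 3.26% and 5.83% of all regions. The gained share was then below that of all regions, while the lost share stayed below it.

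**Figure D4:**
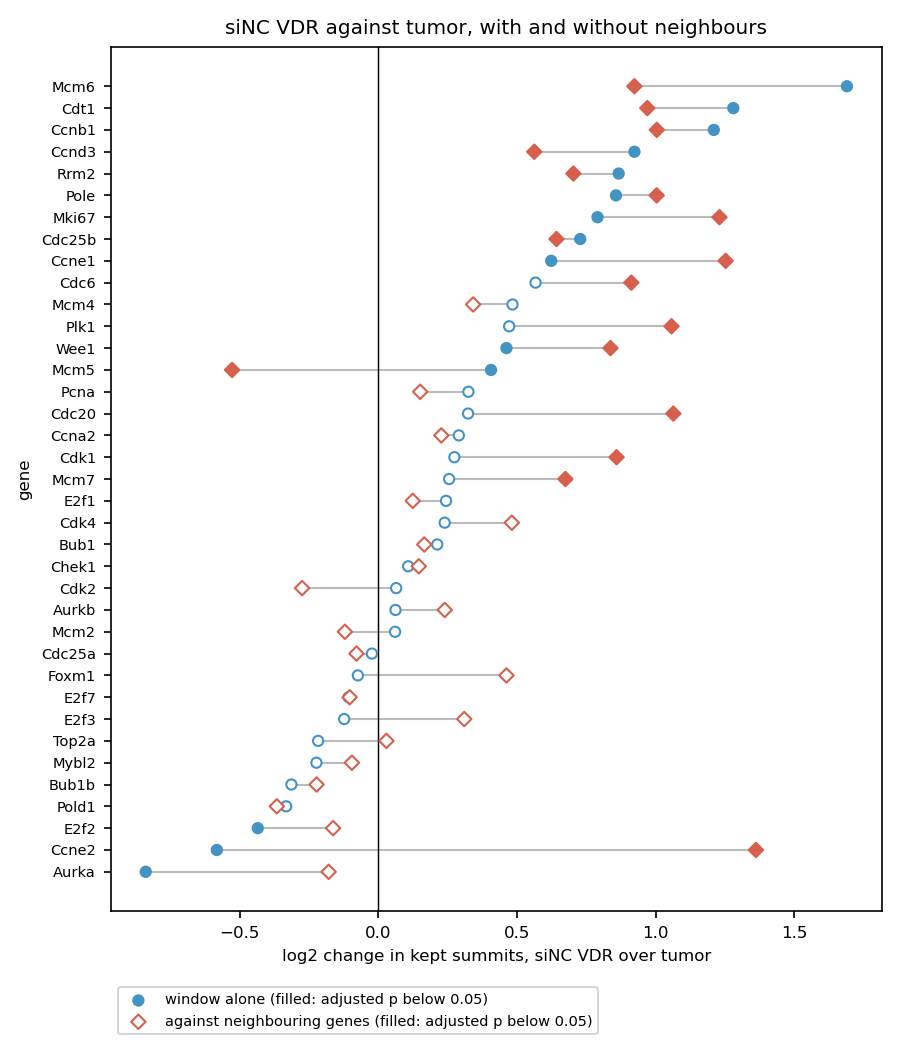
Difference in log2 kept summits between siNC-treated VDR and tumor for 37 genes, for the window alone (circles) and relative to 10 neighbouring genes on each side (diamonds); filled symbols have an adjusted p below 0.05. Mcm6 goes from 1.69 to 0.92, Ccne2 from -0.58 to 1.36 and Mcm5 from 0.41 to -0.53.

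**Figure D5:**
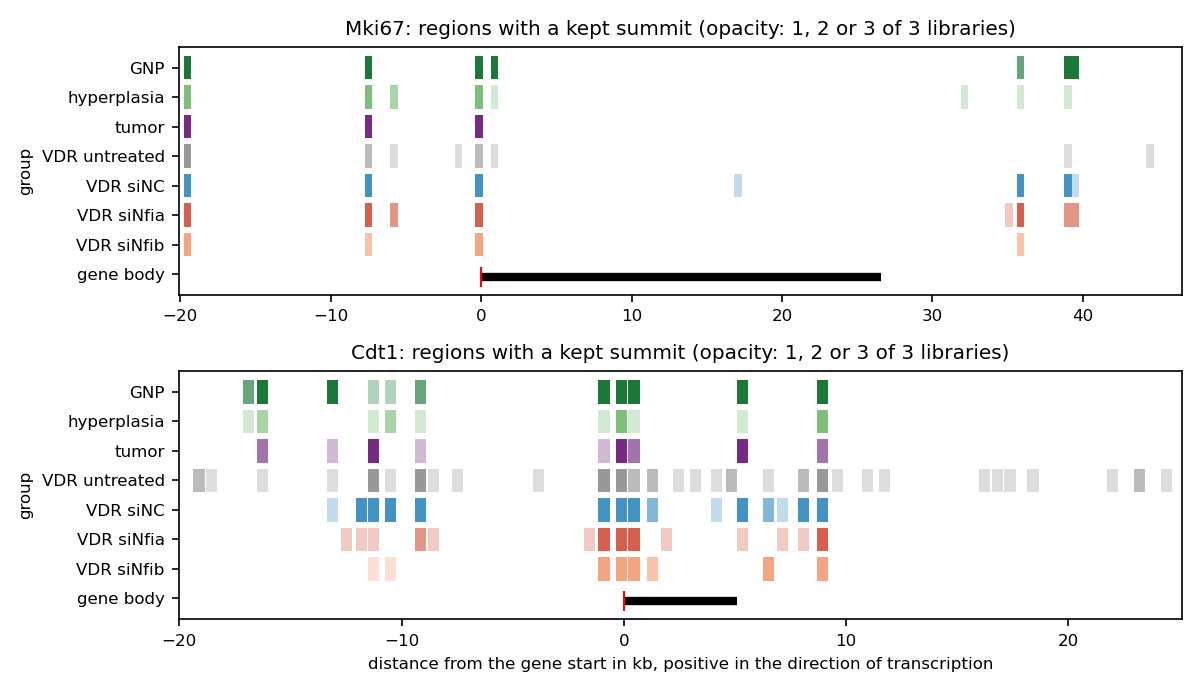
Regions of 500 bp with a kept summit in the Mki67 and Cdt1 windows by group; the x axis is the distance from the gene start in kb, opacity is the number of libraries (1, 2 or 3 of 3), the black bar is the gene body and the red tick the start. The tumor row of Mki67 has no region with a kept summit beyond the 3′ end, where GNP and siNC have such regions. The siNfib row of Cdt1 lacks several regions of the siNC row.

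Promoter ranks mostly fell in this comparison, as they did over all genes. Of 40 promoters 1 rose in rank and 10 fell from tumor to siNC, where 12.9% of all 12559 genes rose and 25.2% fell. The median change was -0.48, against -0.29 over all genes. Ranks did not overlap between tumor and siNC for 45% of the 40 promoters and 49.8% of all genes. Mki67 ranked 8250, 8378 and 12863 in tumor and 42834, 49350 and 28794 with siNC (-2.03, SE 0.36, adjusted p = 0.00111), although its window count had risen. Ccne2 ranked 6835, 5950 and 6011 in tumor and 29721, 22605 and 36510 with siNC (-2.22, SE 0.36, adjusted p = 0.000607).

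E2f3 fell by 2.82 (SE 0.68, adjusted p = 0.00664), the largest log2 fall of the 40, and stayed within the top 626 summits with siNC. Cdc25a, the phosphatase of the G1 to S step, ranked 2948, 1974 and 1146 in tumor and 9970, 16956 and 5167 with siNC (-2.34, SE 0.53, adjusted p = 0.00472). Cdk4, the partner of D-type cyclins, ranked 4386, 4284 and 7403 in tumor and 20668, 20422 and 11451 with siNC (-1.71, SE 0.41, adjusted p = 0.00682). No tumor library overlapped a siNC library for these genes. Bub1 fell by 1.26 (SE 0.29, adjusted p = 0.00495), with siNC replicate 2 set to rank 100000 because it kept no summit there. The calls for Mki67, Ccne2, E2f3, Cdc25a, Cdk4 and Bub1 held without each library in turn.

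The other 4 falls were lost without at least 1 library. Top2a ranked 6749, 3953 and 7255 in tumor and 56939, 10707 and 17017 with siNC (-1.91, SE 0.56, adjusted p = 0.0174; without tumor replicate 2, 0.054). Cdc6 ranked 5282, 4596 and 5383 in tumor and 14401, 10706 and 13238 with siNC (-1.32, SE 0.37, adjusted p = 0.0143; without tumor replicate 2, 0.0705). Both had separate groups. Mcm3 ranked 1401, 478 and 1075 in tumor and 2548, 5288 and 2255 with siNC (-1.80, SE 0.56, adjusted p = 0.0232), a call lost without tumor or siNC replicate 2 (adjusted p up to 0.117). Pcna ranked 1068, 1519 and 1158 in tumor and 2384, 4102 and 3001 with siNC (-1.32, SE 0.46, adjusted p = 0.0378), a call kept only without siNC replicate 1 (adjusted p otherwise up to 0.122).

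Mcm5 was the single promoter to rise, from 3113, 3690 and 3831 in tumor to 1247, 1311 and 1474 with siNC (1.40, SE 0.43, adjusted p = 0.0226). It lost the call without any 1 tumor library (adjusted p up to 0.0989). By role, the falls covered both proliferation markers, 2 of 6 G1 and S genes, 1 of 3 spindle checkpoint genes, 1 of 4 phosphatases and brakes, 1 of 6 transcription factors, 2 of 8 licensing genes and 1 of 5 replication genes. Among the 6 mitotic genes 0 were called, and their median change was 0.34. Cdk1 ranked 5801, 5429 and 6456 in tumor and 2681, 5156 and 6655 with siNC, which overlap.

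Within VDR, siNC libraries were set against untreated ones, whose lists stand apart. Of 38 windows 11 were called higher with siNC (Mcm6, Mcm7, Pole, Ccne1, Ccna2, Ccnb1, Cdk1, Aurkb, Wee1, E2f3 and Mki67) and 3 lower (Ccnd3, E2f1 and Mybl2), where 21.4% of all 13151 genes were called higher and 12.2% lower. The median over all genes was 0.28 above 0 and that of the 38 windows 0.46. Untreated and siNC libraries did not overlap for 39.5% of the 38 windows and 43.7% of all genes. Ccnd3 had 31, 36 and 45 summits untreated and 17, 20 and 25 with siNC (-0.82, SE 0.19, adjusted p = 0.0111). E2f1 had 38, 35 and 36 untreated and 25, 26 and 23 with siNC (-0.54, SE 0.13, adjusted p = 0.0148). Untreated VDR was the highest of all 7 groups for both genes. With a score of at least 10, 22 of 26 windows were called higher and 0 lower, where 91.2% of all genes were called higher and 0.0123% lower.

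Cdk1 had 5, 2 and 3 summits untreated and 10, 7 and 8 with siNC (1.15, SE 0.30, adjusted p = 0.0169), and Ccne1 had 2, 4 and 7 against 11, 12 and 11 (1.32, SE 0.33, adjusted p = 0.0145). E2f3 had 6, 3 and 6 untreated and 9, 11 and 12 with siNC (1.00, SE 0.27, adjusted p = 0.0195). Low untreated counts in these 3 genes met higher siNC counts without overlap. Ccna2 had 3, 3 and 4 against 6, 7 and 7 (0.83, SE 0.24, adjusted p = 0.0253), and Aurkb, the kinase of the chromosomal passenger complex, had 23, 16 and 15 against 29, 24 and 31 (0.63, SE 0.19, adjusted p = 0.032). The other rises were 1.48 for Pole, whose groups overlapped, 1.19 for Ccnb1, 1.06 for Mki67, 0.90 for Wee1, 0.58 for Mcm7 and 0.54 for Mcm6.

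Against neighbouring genes 1 window was called higher and 0 lower, where 4.4% of all genes were called higher and 4.47% lower, and the falls of Ccnd3, E2f1 and Mybl2 became rises of 0.17, 0.35 and 0.21 that were not called. Mybl2, at 14, 12 and 12 untreated and 6, 6 and 7 with siNC (-0.90, SE 0.19, adjusted p = 0.00732), was the only window called without each library in turn. The other 13 calls were lost without at least 1 library, and the highest adjusted p reached 0.189, for Ccnb1. Promoter ranks gave 0 calls among 39 genes by limma, with 2 at an unadjusted p under 0.05, and 0% of all 11602 genes were called in either direction, with 2055 at an unadjusted p under 0.05.

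The knockdown comparisons asked what siNfia and siNfib did to these loci, and both use the same siNC libraries. With siNfia limma called 0 of 38 windows, with 6 at an unadjusted p under 0.05, and 0% of all 13551 genes, with 1566 at an unadjusted p under 0.05. It also called 0 of 40 promoters, with 6 at an unadjusted p under 0.05, while 0.00839% of all genes rose and 0% fell. With siNfib 0 windows rose and 1 fell, Cdt1, where 0.273% of all genes rose and 0.553% fell. Of the 40 promoters limma called 0 with siNfib, with 3 at an unadjusted p under 0.05, while 0.361% of all genes rose and 0.193% fell. Window counts did not overlap between siNfia and siNC for 10.5% of the 38 genes and 8.95% of all genes. For siNfib and siNC the shares were 10.5% and 12.7%.

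Cdt1 had 18, 19 and 18 summits with siNC, 13, 13 and 11 with siNfia and 11, 12 and 10 with siNfib. Both knockdowns lay below the control with no overlap. The siNfib fall was 0.69 (SE 0.13, adjusted p = 0.027), and it was lost without any 1 library (adjusted p 0.0536 to 0.138) and relative to neighbours (-0.62, adjusted p = 0.132). Its direction turned with the 50000 strongest summits (0.13), whole lists (0.09) or a score of at least 10 (0.30). Lists with siNfib have the higher scores, 8.25 to 17.4 at rank 100000 against 4.95 to 9.61 with siNC, and their part in the result was not tested. Promoter ranks of Cdt1 were 2663, 5748 and 1931 with siNC and 2864, 1476 and 2079 with siNfib, which overlap.

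Around Cdt1, 4 regions were occupied in 3 siNC and 0 siNfib libraries: chr8:122555967-122556466 and chr8:122558610-122559109 upstream, and chr8:122573121-122573620 and chr8:122575856-122576355 at and beyond the 3′ end. Their ranks with siNC ran from 38606 to 93767. Mki67 had 12, 8 and 12 summits with siNC, 11, 9 and 8 with siNfia and 6, 6 and 6 with siNfib. All siNfib libraries were below all siNC libraries, but the difference of -0.72 (SE 0.18, adjusted p = 0.0778) was not called. The region at chr7:135677112-135677611 was occupied in 3 siNC and 0 siNfib libraries. Mcm6 likewise had 14, 15 and 13 with siNC and 10, 9 and 11 with siNfib (-0.45, SE 0.13, adjusted p = 0.129). Over all 684 regions 8 were gained and 7 lost with siNfib (1.17% and 1.02%), against 1.33% and 0.865% of all regions.

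Among the uncalled with siNfia, Ccne1 had 11, 12 and 11 with siNC and 7, 5 and 9 with siNfia (-0.65, SE 0.19, adjusted p = 0.247). Cdc20 had 6, 6 and 6 with siNC and 5, 4 and 4 with siNfia (-0.40, SE 0.16, adjusted p = 0.38). Ccne2 had 4, 4 and 5 with siNC and 6, 7 and 6 with siNfib (0.46, SE 0.17, adjusted p = 0.241). These 3 were picked from genes with separate groups, and none was called.

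Calls in at least 1 comparison, by window or promoter, were made for 29 of the 40 genes (72.5%), where 66.1% of all 16224 genes tested at least once were called at least once. The other 11 were Cdk2, Ccnb2, Plk1, Bub1b, Cdc20, Chek1, E2f7, Mcm2, Mcm4, Pold1 and Rrm1. Chek1, the checkpoint kinase that responds to stalled replication, had 3 kept summits in 18 of 21 libraries and between 2 and 5 in all. Its promoter rank ran from 4348 to 18511. Rrm1, the large subunit of ribonucleotide reductase, had 1 to 3 summits and a promoter rank of 1824 to 19754. Mcm4 had 2 to 6 summits and a promoter rank, read at either gene end, of 1219 to 4215. Plk1, the Polo-like mitotic kinase, had 2 to 5 summits and ranked from 5151 to 25453.

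A further 81 cell cycle genes gave the wider pathway. From GNP to tumor 0 of 71 tested windows rose and 4 fell (5.63%), where 2.95% of all genes rose and 3.29% fell. The 4 were Mcm10, Prim1, Pold2 and Tk1, which act in replication or nucleotide supply, as do many others of the 81. From tumor to siNC 18 of 73 windows rose and 4 fell, and 7 of 80 promoters rose and 19 fell. With siNfia and siNfib 0 of 74 windows were called by limma, with 7 and 5 at an unadjusted p under 0.05. Over all genes 0% were called with siNfia, while with siNfib 0.273% rose and 0.553% fell. From tumor to siNC 24.7% of these windows rose, against 29.7% for the 40 genes and 21.1% of all genes. Falls were 5.48% of these windows, 8.11% for the 40 genes and 13.0% of all genes. Of promoters 8.75% rose and 23.8% fell, against 2.5% and 25% for the 40 genes and 12.9% and 25.2% of all genes.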

How the data were processed

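ATAC-seq summits were analysed in 21 mouse libraries, 3 in each of 7 groups taken from the sample titles. The authors deposited 1 summit list per library with a score that is a −log10 of a p or q value, which of them is not stated, per the file layout and its range. Bowtie2, MACS2, Picard and the mm10 build are listed in the submitters' processing notes, while versions, read shifting, filters and thresholds are not given in the sources used here. Scores depend on library depth, which is unknown, so they only ranked summits within a list, and no counting interval can be given.

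The 100000 highest summits of each list were kept. Window counts were summits in the RefSeq gene body (GRCm38.p6) or within 20 kb, as log2(count + 1), for genes with a mean of at least 3. Promoter strength was −log2 of the rank of the best summit within 1 kb of the start, for genes with one in at least 3 libraries, and rank 100000 stood in where a library had none. The start came from the RefSeq promoter table for 33 of the 40 genes, and either gene end served for the other 7. Where a gene had several listed starts, the best summit near any of them was used. limma 3.58.1 (R 4.3.3, trended empirical Bayes) was fitted across all such genes, with Benjamini-Hochberg adjustment and calls below 0.05, after being tested on simulated data. The fits held the 9 primary libraries, the 9 siRNA libraries, tumor with siNC, or untreated VDR with siNC. Regions were 500 bp, merged greedily by rank.

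The members and the lists were chosen with earlier results of these data known. Genes named in the text were those called in any comparison, those with the largest differences among libraries that did not overlap, and examples of each role. Alternatives covered list length, score, window, promoter and region width, neighbours, closeness, pseudocount, filter, libraries in the fit, the replicate number as a block and leaving out each library. Same-numbered libraries had correlations of deviations between -0.045 and 0.077, so the numbers were not taken as pairs.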

Additional observations from a re-analysis of the deposited data

How the results depend on the processing

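Of the 36 windows tested in the primary fit, calls depended on list length and on single libraries. From GNP to hyperplasia the 50000 highest summits gave 1 called window against 0. From hyperplasia to tumor that list gave 2 and the gene body alone 1, against 0. From GNP to tumor the 3 called windows became 0 with whole lists or a score of at least 10. They became 1 with the replicate number as a block, and 1 without each library in turn. The gene body alone left 13 windows to test in the primary fit, of which 0 were called from GNP to tumor. Mki67 and Mcm6 were not among those tested. From tumor to siNC, and for siNC against untreated VDR, the gene body alone left 15 windows to test. From tumor to siNC the 14 called windows became 8 (50000 highest), 9 (whole lists), 4 (score of at least 10, all lower, against 11 higher and 3 lower), 5 (gene body alone) and 9 (summits under 500 bp apart counted once), and 6 to 9 without 1 library. For siNC against untreated VDR the 14 became 3 (50000 highest), 22 (score of at least 10, all higher), 3 (gene body alone), 1 (neighbours), 4 (close summits counted once), 4 (no filter) and 22 (all 21 libraries in the fit, 18 higher and 4 lower), and 2 to 11 without 1 library. With siNfib the 1 called window became 0 under 50000 summits, whole lists, the score, neighbours, close summits or all 21 libraries in the fit. It also became 0 without any 1 library. With the gene body alone 12 windows were tested, and Cdt1 was not among them. The cause of these moves was not tested.

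Promoter calls moved less often. From GNP to hyperplasia the 1 call became 0 with 50000 summits, all 21 libraries in the fit, a summit required in every library, the replicate block or without any 1 library. From hyperplasia to tumor it became 0 with all 21 libraries in the fit and 0 to 3 without 1 library. From GNP to tumor the 2 calls became 1 with all 21 libraries in the fit and 1 to 2 without 1 library. From tumor to siNC the 11 became 6 to 11 without 1 library, and for siNC against untreated VDR the 0 became 3 with all 21 libraries in the fit. The replicate block moved no other count by over 1.5 times.

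Promoters occupied, of 40, became 39 within 500 bp of the start in GNP, hyperplasia, tumor, siNfia and siNfib and 38.3 on average in siNC. With 50000 summits they were 38.3 (siNC), 37 (siNfia) and 39.3 (siNfib). Regions gained with 50000 summits were 3 (hyperplasia), 4 (tumor against GNP), 10 (siNC against tumor), 7 (siNC against untreated), 1 (siNfia) and 2 (siNfib), and regions lost were 5 (hyperplasia) and 4 (siNfib). For siNC against tumor the regions lost stayed at 12. With 1000 bp regions, 4 were lost from GNP to tumor, 14 gained from untreated VDR to siNC, 3 gained and 3 lost with siNfia, and 4 lost with siNfib.

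Single genes that reversed, in log2, were these. From tumor to siNC, a score of at least 10 gave -0.35 for Cdc25b, -0.028 for Pole, -0.40 for Ccne1 and -0.033 for Wee1, and 50000 summits gave -0.19 for Ccne1. Relative to neighbours Ccne2 was 1.36 and Mcm5 -0.53. For siNC against untreated VDR, E2f1 became 0.044 (whole lists), 0.97 (score) and 0.35 (neighbours), Mybl2 0.21 (neighbours), and Ccnd3 1.37 (score) and 0.17 (neighbours). With siNfib Cdt1 became 0.13 (50000 summits), 0.090 (whole lists) and 0.30 (score). A score threshold leaves lists of unequal length.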
